A study of Mus musculus with 6 samples.

Results

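The nuclei described here were the capillary-like and vascular endothelial nuclei of the mouse liver. In these endothelial nuclei RNA of 5 capillary or vascular genes outweighed RNA of 3 genes of the liver sinusoid. The name states this rule, and many of the nuclei carried no clear genes of a known vessel type. Of 39012 kept nuclei, 4135 passed an endothelial gate and 1533 of those were capillary-like. A nucleus passed the gate when at least 3 of the 7 endothelial genes Stab2, Ptprb, Flt1, Kdr, Tek, F8 and Cdh5 were detected. At most 1 unique molecular identifier (UMI, a count of a captured RNA molecule) was allowed in the sum of Ptprc, Skap1, Dcn, Reln and Pkhd1, which mark leukocytes, stellate cells and cholangiocytes. Members were selected on these measured UMI counts: a gated nucleus was capillary-like when Esm1, Emcn, Pcdh17, Adgrl4 and Efnb2 together held more UMIs than Stab2, Clec4g and Bmp6 together, and as sinusoidal when they held fewer. By this rule 2175 gated nuclei were sinusoidal and 427 were tied, 196 of which had no UMI of either gene set.

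The nuclei came from single nuclei RNA sequencing of snap-frozen livers of 6 male DIAMOND mice, 2 in each of 3 groups. DIAMOND mice are a cross of the 129A1/SvIm and C57BL/6J strains that develops fatty liver disease and liver tumors on a fat- and sugar-rich diet. Diets began at 2 months of age in all groups, and the Ctrl mice ate chow for 40 weeks. The Western diet (high-fat food with sugar water) lasted 40 weeks in Pre-T mice, which had no tumor yet, and 48 weeks in Post-T mice, which had tumors. The Post-T libraries are titled as tumor but their source is given as liver, so whether tumor tissue, adjacent liver or both were sampled is not known. Post-T mice were thus also older than Ctrl and Pre-T mice when their livers were taken. Time on diet, age and tumor stage cannot be told apart.

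The liver sinusoid is lined by a specialized endothelium that has open pores, takes up waste molecules through scavenger receptors such as Stab2, and rests on little basement membrane. Arteries and the portal and central veins are lined instead by continuous endothelium. In chronic liver disease sinusoids can lose their special features and acquire capillary ones, a process called capillarization, and growing tumors carry vessels with tip cell genes such as Esm1, Angpt2 and Apln. Endothelium near the central vein releases Rspo3, Wnt2 and Wnt9b, signals that set the zonation of hepatocytes.

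The libraries held between 22453658 and 40307564 UMIs, and the median UMI count of a capillary-like nucleus lay between 1791 and 2395 per mouse, against 1618 to 2130 for a sinusoidal nucleus. The capillary-like nuclei numbered 106 and 182 in the Ctrl mice, 146 and 128 in the Pre-T mice, and 294 and 677 in the Post-T mice, so that the Post-T mice contributed most of them. No barcode was shared among the capillary-like nuclei of different libraries, although 181 of 41700 distinct barcodes occurred in more than 1 library. The mean level of a gene was taken from the summed counts of a mouse, as CPM (the gene's count scaled to a fixed library total), and values below are listed for mouse 1 and then mouse 2 of each group.

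The genes that defined the nuclei are a description and were not tested. Adgrl4, an adhesion receptor of endothelium, had a UMI in 85.4% of capillary-like nuclei and in 60.0% of sinusoidal nuclei. For Pcdh17, a protocadherin, the shares were 64.2% and 37.5%, and for Emcn, a sialomucin of capillaries and veins, 51.9% and 22.7%. Efnb2, an ephrin of arterial and growing vessels, was found in 41.4% and 16.7%. Esm1, a secreted proteoglycan of tip cells, was present in 32.5% against 9.61%. Among the sinusoidal genes the order was inverted: Stab2, a hyaluronan scavenger receptor, was detected in 52.9% of capillary-like and 96.5% of sinusoidal nuclei, and Clec4g in 13.1% and 39.0%. Of the 1533 capillary-like nuclei, 37.1% had no UMI of any of the 3 sinusoidal genes.

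Esm1 was uneven across the mice. It reached 33.1 and 32.8 CPM in Ctrl mice, 165 and 34.5 in Pre-T mice and 279 and 458 in Post-T mice. Only 3.77% and 4.40% of the capillary-like nuclei of Ctrl mice held an Esm1 UMI, against 27.6% and 54.4% in Post-T mice, with Pre-T mouse 1 (21.2%) apart from Pre-T mouse 2 (4.69%). Stab2 in the capillary-like nuclei was highest in Post-T mouse 2, where 70.9% of the nuclei held a UMI, compared with 27.5% to 48.4% in the other 5 mice. At the edge of the rule, 269 nuclei were capillary-like by a margin of 1 UMI and 399 were sinusoidal by 1 UMI, whereas 1039 were capillary-like by 3 or more.

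Markers apart from the gate showed that the nuclei were endothelial. The summed level of 12 further endothelial genes, none of them used by the gate, lay between 5752 and 8678 CPM in the capillary-like nuclei of the 6 mice, against 283 to 609 CPM in nuclei outside the gate. RNA of other cell types was present too: 12 hepatocyte genes, all detected, summed to 21470 and 14710 CPM in Ctrl mice, 6704 and 17830 in Pre-T mice and 6882 and 20140 in Post-T mice, below the level of the nuclei outside the gate in each mouse (9861 to 30540 CPM). Stellate and fibroblast genes summed to 42.6 to 320 CPM, macrophage genes to 25 to 679 CPM, lymphocyte genes to 38.3 to 108 CPM and cholangiocyte genes to 1.14 to 161 CPM. Mesothelial genes summed to 93.8 to 507 CPM, above the nuclei outside the gate (81.7 to 221 CPM) in every mouse but Post-T mouse 2. In Ctrl mice most of that sum was Gpm6a (111 and 135 counts), which was higher than in sinusoidal nuclei in 6 of 6 mice. The source of this RNA was not tested. Of all genes on these lists and a lymphatic list, only Epcam of cholangiocytes, Klrb1c of NK cells and Ccl21a of lymphatic endothelium were at 0 in all 6 mice. The other members were detected, 7 of 8 cholangiocyte genes and 9 of 10 lymphocyte genes. Pdpn, on the lymphatic list, was detected in Ctrl mouse 1 alone. The whole list of 8 lymphatic genes, 7 of them detected, summed to 291 to 555 CPM in capillary-like nuclei. The sinusoidal nuclei held 449.6 to 534 CPM and nuclei outside the gate 267 to 549.7 CPM. Against sinusoidal nuclei Sema3d and Nts of this list were higher, and Prox1 and Flt4, which other liver cells also express, were lower.

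The first comparison asked how large the capillary-like fraction of the liver endothelium was on each diet. Capillary-like nuclei made up 16.0% (exact 95% binomial interval 13.3 to 19) and 23.6% (20.7 to 26.8) of the gated endothelial nuclei in the Ctrl mice. In Pre-T livers it was 42.9% (37.6 to 48.4) and 22.5% (19.1 to 26.2), and in the Post-T mice 58.1% (53.7 to 62.4) and 52.6% (49.8 to 55.3). By this rule both Post-T mice lay above the other 4, while Pre-T mouse 2 fell within the range of the Ctrl mice and Pre-T mouse 1 lay between them and the Post-T mice.

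**Figure D1:**
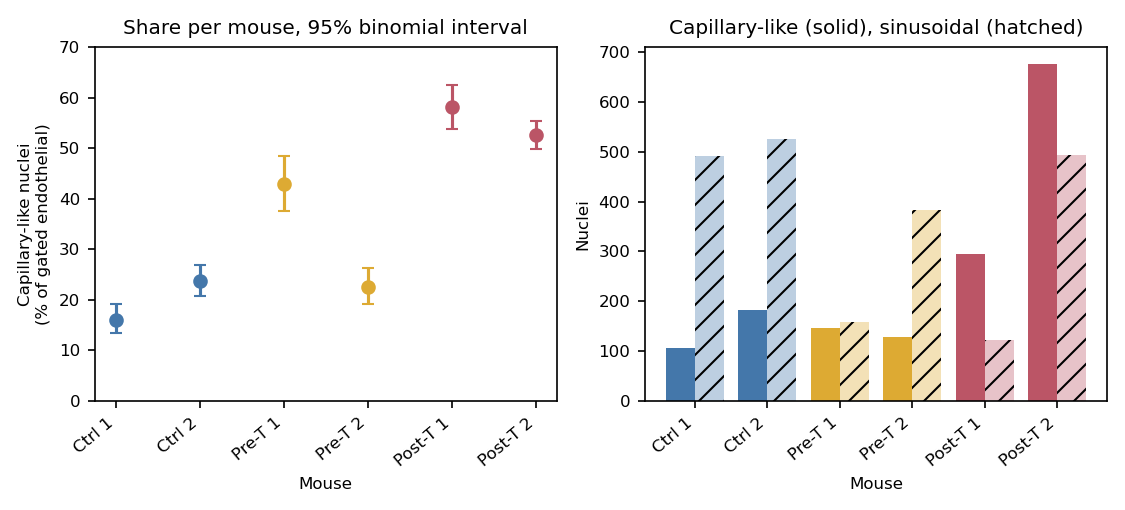
Share of capillary-like nuclei among gated endothelial nuclei per mouse in percent (left, points with exact 95% binomial intervals) and number of capillary-like (solid) and sinusoidal (hatched) nuclei per mouse (right), colored by Ctrl, Pre-T and Post-T group. The 2 Post-T mice sit at 58.1% and 52.6%, above the Pre-T (42.9% and 22.5%) and Ctrl mice (16.0% and 23.6%).

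The Ctrl mean was 19.8% ± 5.39, the Pre-T mean 32.7% ± 14.5 and the Post-T mean 55.3% ± 3.92 (SD, n = 2 each). Western diet mice exceeded Ctrl mice by 24.2 percentage points (two-sided exact permutation test, p = 0.267). Post-T exceeded Pre-T mice by 22.6 points and Ctrl mice by 35.5 points (exact p = 0.333 each, the smallest that 2 against 2 mice allow). Pre-T exceeded Ctrl mice by 12.9 points (exact p = 0.667). None of these comparisons could pass 0.05, since 4 against 2 mice allow no p below 0.0667. Relative to all kept nuclei the capillary-like share was 1.47% and 2.34% in Ctrl mice, 2.70% and 1.63% in Pre-T mice and 5.41% and 12.7% in Post-T mice. When nuclei were thinned to 500 UMIs, the share of gated nuclei was 9.39% and 18.6% in Ctrl mice, 31.2% and 12.9% in Pre-T mice and 39.5% and 33.7% in Post-T mice, in the same order of group means. A fall of sinusoidal nuclei and a rise of capillary-like nuclei cannot be told apart by a share of gated nuclei. Of all kept nuclei, sinusoidal nuclei were 6.79% and 6.77% in Ctrl mice, 2.92% and 4.89% in Pre-T mice and 2.25% and 9.28% in Post-T mice. The 2 Post-T mice thus held the lowest and the highest sinusoidal share. Gated nuclei were 24.2% of kept nuclei in Post-T mouse 2, against 6.29% to 9.91% in the other mice. Genes of the rule themselves differed between mice, Esm1 and Clec4g among them. A Clec4g UMI was held by 13.1% and 20.2% of the sinusoidal nuclei of Post-T mice, against 39.3% to 52.6% in Ctrl and Pre-T mice. Without Clec4g in the rule the Ctrl mice were at 17.8% and 26.1% and the Post-T mice at 58.5% and 54.0%. Without Esm1 in the rule the Ctrl mice were at 16.0% and 23.4% and the Post-T mice at 55.7% and 48.4%. The order of single mice did not hold under all rules. With at least 2 capillary UMIs and no sinusoidal UMI, Post-T mouse 2 (10.9%) lay below Pre-T mouse 1 (11.47%) and near Ctrl mouse 2 (9.61%), while Post-T mouse 1 was at 27.5%. With Stab2 left out of the rule, Pre-T mouse 1 and Post-T mouse 1 were both at 73.5%.

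The second comparison set the capillary-like against the sinusoidal nuclei of the same 6 mice. Genes of veins, arteries and blood flow stood higher in the capillary-like nuclei, together with a set of secreted signals, and genes of sinusoidal scavenging stood lower. The rule split the nuclei along this contrast, so the folds and counts that follow are a description. With the gate genes left out, 586 genes (3.2% of 18318 measured) were higher and 826 (4.51%) lower, 7.71% in all, at the threshold used for the diets, and nothing is read from these counts. Of the lower genes, 763 had higher levels outside the gate than in capillary-like nuclei, and 7 of 12 hepatocyte markers were among the lower genes. When only the nuclei with at most 1% hepatocyte marker UMIs were kept (404 capillary-like and 298 sinusoidal), 81 genes passed. Single mice were then nearly empty, with 3 capillary-like nuclei in Ctrl mouse 1 and 6 in Pre-T mouse 2.

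The venous genes showed the widest gap: 10 of 16 passed as higher and none as lower, with a median log2 fold change of 2.11 against -0.05 over all genes. Rspo3, the R-spondin that amplifies Wnt signals around the central vein (GRCm38, chr10:29452416-29535867), was 1029 and 1562 CPM in Ctrl mice, 931 and 933 in Pre-T mice and 227 and 9.09 in Post-T mice. In sinusoidal nuclei it was 65.8 and 64.9 CPM in Ctrl mice, 108 and 67.4 in Pre-T mice and 14.7 and 7.13 in Post-T mice. Its level was higher in the capillary-like nuclei of every mouse (log2 fold change 3.71 ± 0.23), but Post-T mouse 2 was near 0 in both. Vwf, the von Willebrand factor of clotting, was 415 and 429 CPM in Ctrl mice, 461 and 622 in Pre-T mice and 336 and 7.39 in Post-T mice. The sinusoidal nuclei held 47.5 and 26.1 CPM in Ctrl mice, 58 and 37.7 in Pre-T mice and 103 and 4.76 in Post-T mice (log2 fold change 3.07 ± 0.22), and Post-T mouse 2 was again far below the rest. Wnt9b, a central vein Wnt ligand, was higher in 5 of 6 mice (log2 fold change 4.56 ± 0.31) and at 0 in both kinds of nuclei of Post-T mouse 2. Selp, the P-selectin that tethers leukocytes, had a log2 fold change of 2.6 ± 0.29, and Cdh13, the T-cadherin, of 1.97 ± 0.22, each in the same direction in 6 of 6 mice.

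Arterial genes were higher in 8 of 18 cases, with none lower and a median of 1.09. Jag1, a Notch ligand of arterial walls, was 69.8 and 149 CPM in Ctrl mice, 128 and 83.5 in Pre-T mice and 32.8 and 22.2 in Post-T mice. Sinusoidal nuclei had 23.4 and 21.9 CPM in Ctrl mice, 20 and 13.5 in Pre-T mice and 9.77 and 8.72 in Post-T mice (log2 fold change 2.16 ± 0.21). Gja5, the gap junction protein connexin 40, and Bmx, an arterial tyrosine kinase, had log2 fold changes of 2.8 ± 0.30 and 3.09 ± 0.31. Mecom, a transcription factor of arterial cells, had 2.17 ± 0.16. Each of these was higher in the capillary-like nuclei of all 6 mice, and Dll4, the Notch ligand of tip cells and arteries, was higher by a smaller amount (0.62 ± 0.18).

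Among secreted ligands 13 of 23 were higher and 3 lower (median 0.63). The lists share members, so their counts are not separate. Of the higher ligands, Rspo3, Wnt9b and Bmp4 are also on the venous list and Dll4, Jag1 and Vegfc on the arterial list. Edn1, the vasoconstrictor endothelin, was 80.9 and 212 CPM in Ctrl mice, 284 and 250.4 in Pre-T mice and 57.4 and 50.6 in Post-T mice. Its sinusoidal level was 19 and 12.6 CPM in Ctrl mice, 32 and 7.19 in Pre-T mice and 12.2 and 39.6 in Post-T mice (log2 fold change 2.63 ± 0.32). Tgfb2 (3.05 ± 0.30), Bmp4 (2.26 ± 0.29) and Kitl, the ligand of the Kit receptor (1.0 ± 0.14), were higher in all 6 mice, and Il33, an alarm cytokine, in 5 (1.53 ± 0.32). Hgf, the hepatocyte growth factor, was lower in all 6 (log2 fold change -1.0 ± 0.18). Flow-response genes included 9 of 14 higher members (median 0.61), among them Klf4 (1.18 ± 0.23) and Klf2 (0.79 ± 0.22), transcription factors induced by shear stress, and Nos3, the endothelial nitric oxide synthase (0.67 ± 0.17).

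Genes of capillaries and angiogenesis (6 of 18 higher, 1 lower, median 0.60) included Plvap, which forms the diaphragms of endothelial pores (1.22 ± 0.18), Cd34 (1.2 ± 0.22) and Pecam1 (1.01 ± 0.13), each higher in 6 of 6 mice. Fabp4, a fatty acid binding protein of capillaries, was 143 and 217 CPM in Ctrl mice, 219 and 248 in Pre-T mice and 329 and 289 in Post-T mice. For sinusoidal nuclei the values were 26.3 and 37.9 CPM in Ctrl mice, 130.0 and 109.7 in Pre-T mice and 151 and 185 in Post-T mice. It was higher in the capillary-like nuclei of every mouse (log2 fold change 1.26 ± 0.18) and was 1 of 4 higher members of 19 genes of fatty acid handling (median 0.13), with Cav1, Cavin2 and Rbp7. Of 17 basement membrane genes 3 were higher and 1 lower, and Vcam1, an adhesion molecule for leukocytes, was 1 of 5 higher members of 22 adhesion genes (log2 fold change 1.25 ± 0.20). In the remaining lists the counts were those of the BMP and TGF-beta pathway (5 of 18 higher, 1 lower), the VEGF and angiopoietin pathway (4 of 17 higher, 3 lower), junction genes (5 of 15 higher, 1 lower) and endothelial transcription factors (6 of 18 higher, with Prox1 lower).

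Of 18 sinusoidal genes apart from the gate, 10 were lower in the capillary-like nuclei and none higher (median -0.57). Fcgr2b, an Fc receptor that clears immune complexes, was 77.2 and 93.4 CPM in Ctrl mice, 179.7 and 115 in Pre-T mice and 21.9 and 81.3 in Post-T mice. It stood at 202 and 310.3 CPM in Ctrl mice, 294 and 253 in Pre-T mice and 85.5 and 182 in Post-T mice in sinusoidal nuclei (log2 fold change -1.31 ± 0.15). Mrc1, the mannose receptor (-0.93 ± 0.13), Oit3 (-1.22 ± 0.18) and Dnase1l3, which degrades extracellular DNA (-1.08 ± 0.15), were lower in all 6 mice. These genes remained detectable in the capillary-like nuclei of all mice, Mrc1 at 249.9 and 376 CPM in Ctrl mice, 552 and 397 in Pre-T mice and 225 and 482 in Post-T mice.

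**Figure D2:**
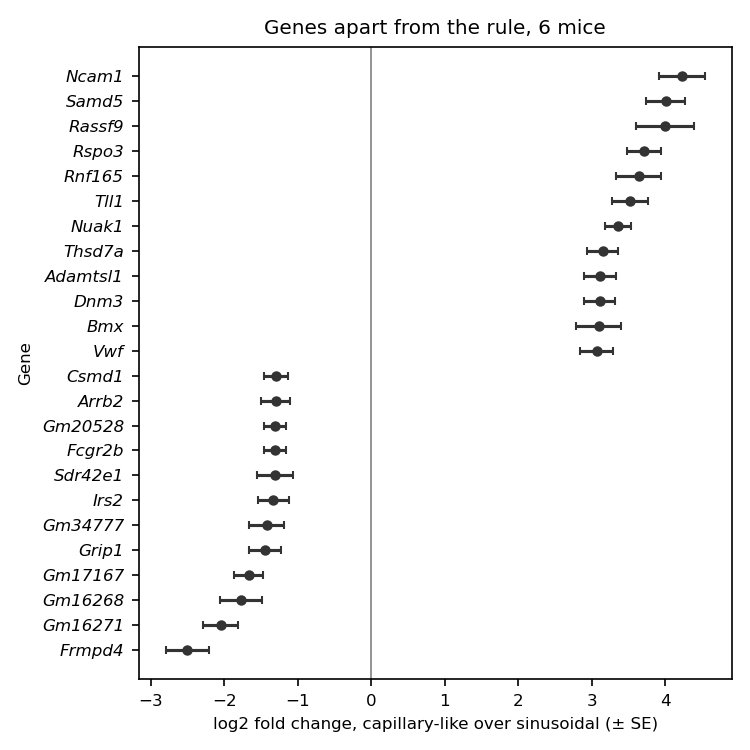
Log2 fold change of capillary-like over sinusoidal nuclei (x axis, points with SE over 6 mice) for the 24 genes that the selection rule named, gate genes left out. The 12 higher genes lie between 3.07 (Vwf) and 4.23 (Ncam1) and the 12 lower genes between -2.50 (Frmpd4) and -1.30 (Csmd1). Of the lower genes, Gm16271 and Gm16268 overlap the rule gene Stab2 on the opposite strand, so they are not independent of the rule.

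Outside the lists, the largest folds belonged to Ncam1, a neural cell adhesion molecule (4.23 ± 0.31), Samd5 (4.01 ± 0.26) and Rassf9, and Nuak1, a kinase related to AMPK, was higher by 3.36 ± 0.17. The lower genes had smaller folds. Frmpd4, the most lowered, rested on a high level in the sinusoidal nuclei of Post-T mouse 1. The antisense genes Gm16271 and Gm16268, also lower, overlap the rule gene Stab2 and so follow from the rule rather than stand apart from it.

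The capillary-like nuclei varied among themselves. Leiden clustering of their log counts on 1000 genes that vary and stand higher than in nuclei outside the gate gave 6 clusters, which are a description and not a test. Cluster 0 (217 nuclei) was venous-like: its leading genes held Rspo3, Vwf, Wnt9b, Cdh13, Lhx6, Wnt2 and Selp, and Rspo3 stood at 2953 CPM in it against 28.4 CPM in the other capillary-like nuclei. Cluster 2 (150 nuclei) was arterial-like, with Jag1, Mecom, Vegfc, Gja5 and Bmx, and Mecom at 3555 CPM against 563 CPM; its first gene, Adgrg6, was on the venous list. Both clusters held nuclei of every mouse, but only 3 of the 217 venous-like nuclei came from Post-T mouse 2, against 44 and 62 in Ctrl, 33 and 37 in Pre-T and 38 in Post-T mouse 1.

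The other 4 clusters had fewer than 3 leading markers of any vessel type and stayed unnamed. Cluster 4 (466 nuclei) was led by Igfbp3, which was at 353 CPM in it and 9.33 CPM elsewhere, with Ephb1, Mcf2l, Chrm3 and the collagen IV genes Col4a1 and Col4a2 among its leading genes. Cluster 5 (272 nuclei) was led by Gm12648, Abcc9, Angpt2 (371 CPM against 79.7) and Bmp6 (529.8 CPM against 122). Genes of both sides of the rule stood high in it, Esm1 at 674 CPM against 188 and Stab2 at 1901 CPM against 583, with Mrc1 and Flt4 among its further leading genes. Esm1 and Stab2 both took part in the clustering. The rule also admits a nucleus with many Stab2 UMIs only where the capillary genes hold more, so the rule favors this pairing. Post-T mice supplied 454 of the 466 nuclei of cluster 4 and 255 of the 272 of cluster 5, while Pre-T mouse 1 supplied 10 and 14 and the 2 Ctrl mice together 3 over both clusters. Cluster 3 (176 nuclei) held 130 nuclei of Post-T mouse 2 and 33 of Post-T mouse 1. Post-T mouse 2 also supplied 293 nuclei of cluster 4 and 211 of cluster 5. The part of that library in clusters 3, 4 and 5 was not tested. Cluster 3 had the lowest median UMI count, 1366.5, and the highest share of hepatocyte marker UMIs, 2.46%. Cluster 1 (252 nuclei, led by Csmd1) held Dnase1l3 and Fcgr2b beside genes of hepatocytes. Differences between diets in the sums below are therefore also differences between clusters.

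**Figure D3:**
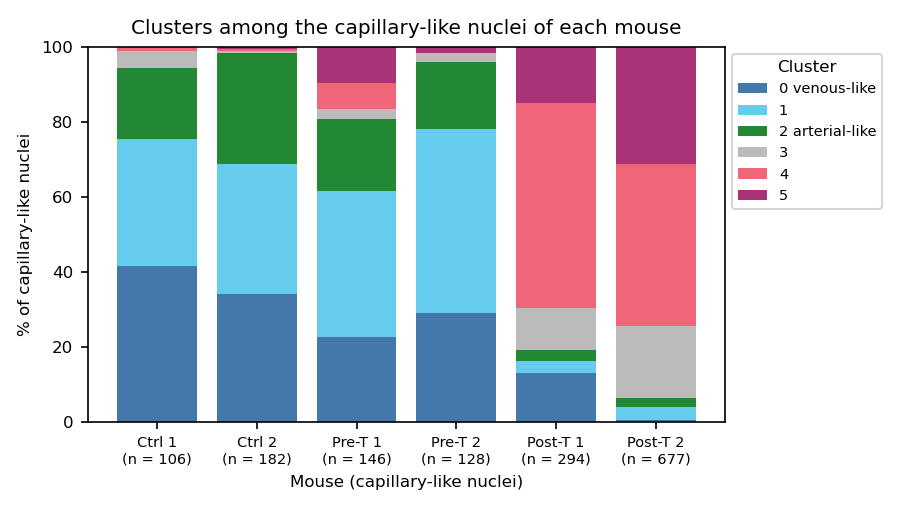
Share of each cluster among the capillary-like nuclei of each mouse (y axis, percent; stacked colors are clusters 0 to 5, with the number of nuclei under each bar). Clusters 4 and 5 fill most of both Post-T bars, Pre-T mouse 1 holds a small part of them, and the venous-like cluster is nearly missing from Post-T mouse 2 (3 of 677 nuclei).

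The third comparison asked how the capillary-like nuclei of tumor-stage mice differed from those of chow-fed mice. Summed over the capillary-like nuclei of a mouse, Post-T mice had more RNA of the collagen IV genes Col4a1 and Col4a2 and connexin 43 (Gja1). The potassium channel genes Kcnj2 and Kcne3 were higher too. Lower in the sums were the TGF-beta ligand Tgfb2, the BMP target genes Id2 and Id3 and the heparan sulfate enzyme Sulf1. Of 15937 genes tested with edgeR's quasi-likelihood test, 42 (0.264%) rose and 72 (0.452%) fell, 0.715% in all, at an adjusted p under 0.05. Of those that fell, 53 had a higher mean level in nuclei outside the gate, as had 4 of those that rose.

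Xylt1, the enzyme that starts glycosaminoglycan chains on proteoglycans (chr7:117380979-117673580), was 11 and 12.6 CPM in Ctrl mice, 93.1 and 77.7 in Pre-T mice and 555 and 226 in Post-T mice. All Western diet mice were above both Ctrl mice, with Post-T mouse 1 the highest (Post-T against Ctrl, log2 fold change 5.17 ± 0.51, adjusted p = 0.0151). Mcf2l was 14.7 and 5.05 CPM in Ctrl mice, 13 and 2.88 in Pre-T mice and 238 and 266 in Post-T mice, so that only the Post-T mice stood apart (log2 fold change 4.97 ± 0.55, adjusted p = 0.0164). Gja1, connexin 43 of gap junctions, was 25.7 and 17.7 CPM in Ctrl mice, 108 and 104 in Pre-T mice and 217 and 178 in Post-T mice, and both Pre-T mice lay between the Ctrl and Post-T mice (log2 fold change 3.4 ± 0.32, adjusted p = 0.0151). Kcnj2, an inward rectifier potassium channel, was 7.35 and 7.57 CPM in Ctrl mice, 15.2 and 5.76 in Pre-T mice and 153 and 112 in Post-T mice (log2 fold change 4.3 ± 0.45, adjusted p = 0.0151). Kcne3, a potassium channel subunit, was 0 and 5.05 CPM in Ctrl mice, 21.6 and 5.76 in Pre-T mice and 116 and 111 in Post-T mice, with 281 counts in Post-T against 2 in Ctrl mice (ratio of the pooled levels 37.7, counting interval 10.3 to 313). For both channel genes only the Post-T mice stood apart. Ephb1, a receptor for B-type ephrins, had no count in either Ctrl mouse and was at 112 and 107 CPM in the Post-T mice, at least 24.1-fold higher than the floor of 3 counts over the Ctrl group (adjusted p = 0.0355).

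Of 17 basement membrane genes 2 rose and none fell (median 0.78 against 0.04 over all genes). Col4a1, a chain of the collagen IV network under continuous endothelium, was 110.3 and 75.7 CPM in Ctrl mice, 268 and 132 in Pre-T mice and 789.7 and 436 in Post-T mice (log2 fold change 2.91 ± 0.43, adjusted p = 0.0355). Its partner Col4a2 was 91.9 and 73.2 CPM in Ctrl mice, 203 and 149.7 in Pre-T mice and 725 and 414 in Post-T mice (log2 fold change 2.97 ± 0.34, adjusted p = 0.0188). In both, the Post-T mice were the highest 2 and Pre-T mouse 1 the next. Of 18 angiogenic genes 1 passed, Trp53i11, at 14.7 and 15.1 CPM in Ctrl mice, 69.3 and 43.2 in Pre-T mice and 511 and 199 in Post-T mice (log2 fold change 4.71 ± 0.54, adjusted p = 0.0188), although 16 of the 18 had a positive log2 fold change and their median was 2.87. Igfbp3, a binding protein of insulin-like growth factors, was 0 and 0 CPM in Ctrl mice, 90.9 and 2.88 in Pre-T mice and 309 and 98.9 in Post-T mice, with 400 counts in Post-T and 0 in Ctrl mice (at least 35.8-fold higher than the floor of 3 counts), and did not pass (adjusted p = 0.105). Angpt2, an antagonist of the Tie2 receptor, was 11 and 20.2 CPM in Ctrl mice, 102 and 23 in Pre-T mice and 171 and 199 in Post-T mice and did not pass either (adjusted p = 0.0528). For both genes Pre-T mouse 1 lay well above Pre-T mouse 2.

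The BMP and TGF-beta pathway had 1 member that rose, the signal transducer Smad1, and 3 that fell of 18 (median -0.33). Id3, an inhibitor of basic helix-loop-helix factors that is switched on by BMP signals (chr4:136143497-136145755), was 110.3 and 167 CPM in Ctrl mice, 119 and 167 in Pre-T mice and 15 and 15.9 in Post-T mice. The 2 Post-T mice lay far below the other 4, which overlapped (log2 fold change -2.93 ± 0.36, adjusted p = 0.027), and in sinusoidal nuclei Id3 fell as well (log2 fold change -2.79, adjusted p = 0.0318). Id2 fell too (-2.86 ± 0.46, adjusted p = 0.0477). Tgfb2 was 132 and 139 CPM in Ctrl mice, 49.8 and 40.3 in Pre-T mice and 24.6 and 6.25 in Post-T mice, with the Pre-T mice between the other groups (log2 fold change -3.11 ± 0.51, adjusted p = 0.0496), and it was the only 1 of 23 endothelial ligands to pass. Sulf1, which removes sulfate groups from heparan sulfate (chr1:12692277-12861192), was 147 and 114 CPM in Ctrl mice, 82.3 and 155 in Pre-T mice and 2.73 and 1.14 in Post-T mice (log2 fold change -5.92 ± 0.55, adjusted p = 0.0149). Nuak1 was 489 and 702 CPM in Ctrl mice, 297 and 207 in Pre-T mice and 108 and 43.2 in Post-T mice (log2 fold change -2.84 ± 0.42, adjusted p = 0.0355). In Sulf1 the Pre-T mice overlapped with Ctrl, and in Nuak1 they lay between the other groups. Tgfb2 (229 CPM against 6.51 in the other capillary-like nuclei) and Nuak1 (830 against 84.6) were leading genes of venous-like cluster 0. Sulf1 (301 against 17.1) was a leading gene of arterial-like cluster 2. Post-T mice supplied 41 of the 217 nuclei of cluster 0 and 25 of the 150 of cluster 2. The part of this mix of clusters in the fall of these genes was not tested. Auts2, a chromatin regulator, was 415 and 464 CPM in Ctrl mice, 236 and 279 in Pre-T mice and 87.4 and 79 in Post-T mice (log2 fold change -2.2 ± 0.25, adjusted p = 0.0197). Plppr5, with 2 counts in Post-T against 40 in Ctrl mice, also fell (pooled level of Ctrl over Post-T 74.6, counting interval 19.3 to 637).

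**Figure D4:**
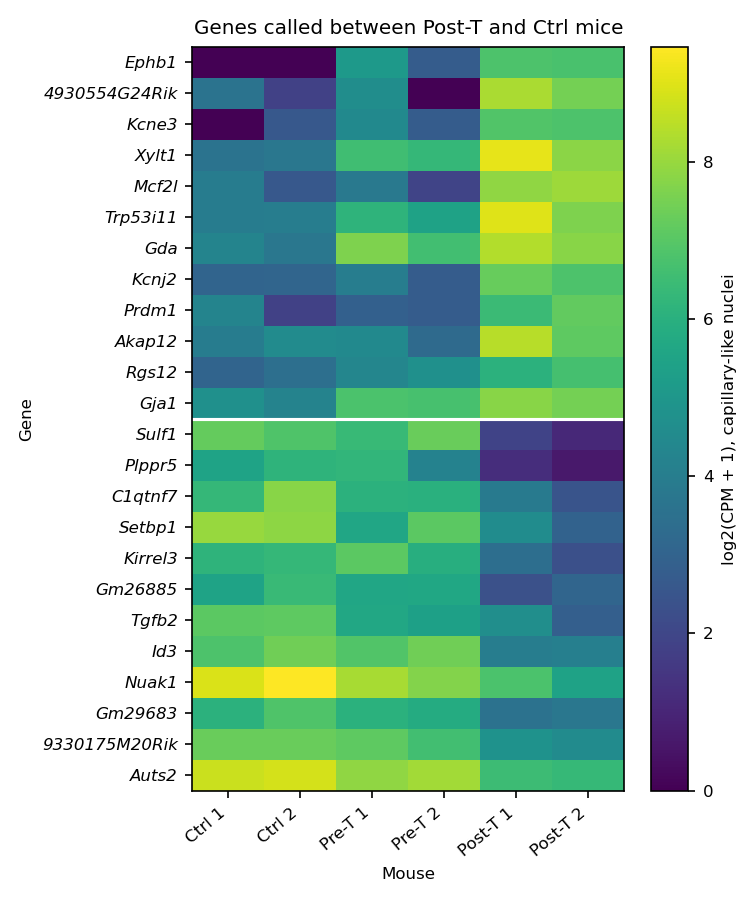
Level of each of the 24 named genes (rows) in the capillary-like nuclei of each mouse (columns), as log2(CPM + 1), for the 12 genes that rose (above the white line) and the 12 that fell in Post-T against Ctrl mice. The genes were named only where the Post-T and Ctrl mice did not overlap, so that split is given by the choice of genes, and the Pre-T columns vary from gene to gene.

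Of 18 endothelial transcription factors 2 rose. Fli1 was 375 and 439 CPM in Ctrl mice, 567 and 556 in Pre-T mice and 1257 and 976 in Post-T mice (log2 fold change 1.65 ± 0.24, adjusted p = 0.0355). Tcf4 was 967 and 1078 CPM in Ctrl mice, 1782 and 1321 in Pre-T mice and 2948 and 2635 in Post-T mice (log2 fold change 1.65 ± 0.27, adjusted p = 0.0477). In both genes the Post-T mice were the highest 2. The junction molecule Jam3 rose as well, 1 of 21 adhesion genes (log2 fold change 3.22 ± 0.41, adjusted p = 0.027). No member of the venous (16 tested, median -1.42), arterial (17, median 0.03), sinusoidal (18, median -0.49), flow-response (14, median 0.12), VEGF and angiopoietin (17, median 0.63), junction (15, median 0.51) or fatty acid lists (18, median 0.50) passed. Rspo3, for which the Post-T mice lay below the other 4, had a log2 fold change of -3.39 ± 1.04 (adjusted p = 0.195), Post-T mouse 1 holding 227 and mouse 2 9.09 CPM.

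The calls between Post-T and Ctrl mice rested on few mice. Here 0 genes passed without Ctrl mouse 1 or without Ctrl mouse 2, and 1 and 6 without Pre-T mouse 1 or 2, which entered the estimate of spread. The count was 289 without Post-T mouse 1 and 52 without Post-T mouse 2, and all 114 kept their sign each time. Several RNAs tied to library quality moved with the group, and their part in the result was not tested. Gm42418, a locus that holds ribosomal RNA sequence, was 22960.0 and 10523 CPM in Ctrl mice, 3877 and 18081 in Pre-T mice and 50381 and 113290.0 in Post-T mice. Cmss1 was 2775 and 1163 CPM in Ctrl mice, 643 and 1459.5 in Pre-T mice and 7122 and 12424 in Post-T mice. Malat1, a nuclear long RNA, was 33787 and 34965 CPM in Ctrl mice, 45568 and 35207 in Pre-T mice and 25969 and 17593 in Post-T mice. Gm42418 and Cmss1 were highest in the 2 Post-T mice and Malat1 was lowest in them. Hepatocyte genes that fell, such as Etnppl (360.2 and 414 CPM in Ctrl mice, 2.16 and 25.9 in Pre-T mice and 0 and 0 in Post-T mice), were higher outside the gate. With at most 1% hepatocyte marker UMIs in a nucleus 121 genes passed, but Ctrl mouse 1 then rested on 3 nuclei and Post-T mouse 2 on 18. Col4a1, Smad1, Id2, Jam3, Fli1, Tcf4 and Auts2 were among the genes that did not pass there.

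The fourth comparison took both Western diet groups against Ctrl. Of the 15937 genes, 7 rose (0.0439%) and 46 fell (0.289%), 0.333% in all, and 38 of those that fell were at a higher level outside the gate. Fkbp5, a chaperone partner induced by glucocorticoids, was 51.5 and 95.9 CPM in Ctrl mice, 188 and 184 in Pre-T mice and 542 and 513 in Post-T mice, the Pre-T mice lying between the other groups (log2 fold change 2.11 ± 0.30, adjusted p = 0.0459). Abcc9, a regulatory subunit of ATP-sensitive potassium channels, was 36.8 and 47.9 CPM in Ctrl mice, 262 and 144 in Pre-T mice and 369 and 393 in Post-T mice (log2 fold change 2.75 ± 0.35, adjusted p = 0.0331). Gja1 (2.8 ± 0.31, adjusted p = 0.0218), Xylt1 (3.94 ± 0.49, adjusted p = 0.0331), the guanine deaminase Gda (3.74 ± 0.45, adjusted p = 0.0318) and Gm46565 also rose.

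Rarb, the retinoic acid receptor beta, was 349 and 328 CPM in Ctrl mice, 123 and 141 in Pre-T mice and 82 and 61.9 in Post-T mice, so that every Western diet mouse lay below both Ctrl mice (log2 fold change -1.76 ± 0.21, adjusted p = 0.0318). Chn2, a Rac-inactivating chimaerin, was 974 and 906 CPM in Ctrl mice, 446 and 455 in Pre-T mice and 271 and 169 in Post-T mice (log2 fold change -1.54 ± 0.22, adjusted p = 0.0449). Tmtc1 was 132 and 101 CPM in Ctrl mice, 30.3 and 28.8 in Pre-T mice and 36.9 and 34.1 in Post-T mice (log2 fold change -1.79 ± 0.26, adjusted p = 0.0491). No member of the endothelial lists passed; the angiogenic list had a median of 1.91 with 15 of 18 positive, against 0.03 over all genes. The count was 0 or 1 without any single Ctrl or Pre-T mouse, 163 without Post-T mouse 1 and 24 without Post-T mouse 2.

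Cxcl9, a chemokine that draws T cells and is induced by interferon, was 0 and 0 CPM in Ctrl mice, 45.5 and 66.2 in Pre-T mice and 26 and 34.1 in Post-T mice, with no count in Ctrl mice. It was detected in all 4 Western diet mice, yet did not pass (Western diet against Ctrl, adjusted p = 0.0584). H2-Aa, a chain of MHC class II, was 3.68 and 7.57 CPM in Ctrl mice, 41.1 and 121 in Pre-T mice and 10.9 and 6.82 in Post-T mice, higher in both Pre-T mice than in the rest (Pre-T against Ctrl, adjusted p = 0.333). The macrophage genes summed to 223 and 679 CPM in the Pre-T mice and to 25 to 144 CPM in the other 4, and their part in H2-Aa was not tested.

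The venous-like nuclei, of which 5 mice held at least 20, allowed some of these genes to be read within 1 cluster, for genes that took no part in the clustering. Gda stood at 16.1 and 13.3 CPM in Ctrl, 220 and 107 in Pre-T and 366 in Post-T mouse 1. Fkbp5 was 40.2 and 19.9, 139 in Pre-T mouse 2 and 132 in Pre-T mouse 1, and 505 CPM in Post-T mouse 1. Id3 was 169 and 179 CPM in Ctrl, 193 and 256 in Pre-T, and 9.90 in Post-T mouse 1. For Tcf4 the values were 965 and 1188 CPM in Ctrl, 1371 and 1004 in Pre-T, and 1297 in Post-T mouse 1, a far smaller gap than in the whole capillary-like sums. In Gda, Fkbp5 and Id3 the gap between Post-T mouse 1 and the Ctrl mice was seen within the cluster as well. Only 1 Post-T mouse could be read and no test was made.

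Whether the Western diet moved capillary-like nuclei differently from sinusoidal nuclei was tested as an interaction. None of 18318 genes passed in edgeR (0.0%), with 671 at an unadjusted p under 0.05, and DESeq2 also gave 0. Without its correction for small counts, edgeR gave 33. Xylt1, for example, rose in both kinds of nuclei, with 15.3 and 20.2 CPM in Ctrl mice, 124 and 94.4 in Pre-T mice and 442 and 277 in Post-T mice in sinusoidal nuclei (Western diet against Ctrl in sinusoidal nuclei, log2 fold change 3.42, edgeR adjusted p = 0.0132). Other genes, picked after their values were seen, lay further apart. The interaction log2 fold change was -1.47 ± 0.26 for Rarb, -1.10 ± 0.24 for Chn2 and -1.52 ± 0.31 for Fabp4. For Ephb1, which had no count in the capillary-like nuclei of Ctrl mice, it was 9.77 ± 1.41 (edgeR adjusted p = 0.0954). Recovery was not simulated for the interaction, so the lack of calls does not show that both kinds responded alike.

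The fifth comparison set the 2 Western diet stages side by side and each against Ctrl, and it was led by a single gene, Chrm3. Chrm3, the muscarinic acetylcholine receptor M3 (GRCm38, chr13:9875486-10360847, minus strand), was 257 and 285 CPM in Ctrl mice, 2.16 and 2.88 in Pre-T mice and 259.6 and 326 in Post-T mice. In sinusoidal nuclei it was 43.1 and 16 CPM in Ctrl mice, 6.00 and 4.49 in Pre-T mice and 85.5 and 113 in Post-T mice. The Pre-T mice had 1 count each, while the Ctrl and Post-T mice overlapped. It was the 1 gene of 15937 (0.00627%) called between Pre-T and Ctrl mice, with 2 counts against 183 (ratio of the pooled levels 110.8, counting interval 30.2 to 922; edgeR adjusted p = 0.000853). From Pre-T to Post-T mice 763 counts stood against 2 (ratio 123.9, interval 34.2 to 1025; adjusted p = 0.000491). It also counted among the genes that fell on the Western diet, where its 4 mice overlapped with Ctrl.

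The Chrm3 counts of Ctrl and Post-T mice came from different clusters. In Ctrl mice 60 of 70 and 89 of 113 counts (85.7% and 78.8%) lay in venous-like cluster 0, at 483 and 591 CPM. In the 38 venous-like nuclei of Post-T mouse 1 there were 0 counts, which allows up to 29.7 CPM, and the 2 Pre-T mice held 1 and 0 counts in theirs. In Post-T mice 182 of 190 and 490 of 573 counts (95.8% and 85.5%) lay in cluster 4, at 475 and 636 CPM. Chrm3 was among the genes used for clustering and leads cluster 4, so its split between clusters is a description. The call between Pre-T and Ctrl mice was lost without Pre-T mouse 1 and also without Pre-T mouse 2.

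**Figure D5:**
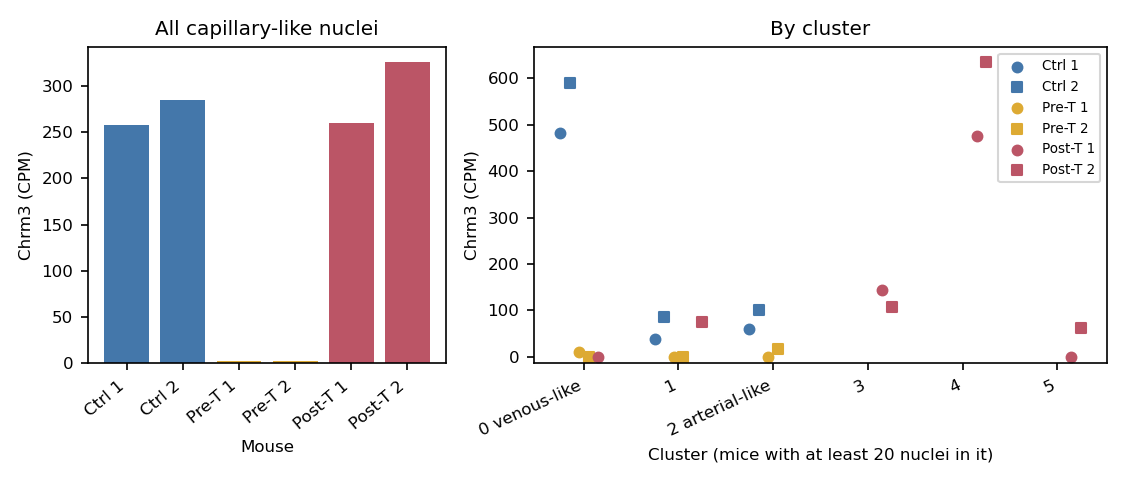
Chrm3 level in CPM in all capillary-like nuclei of each mouse (left, bars) and by cluster for mice with at least 20 nuclei in it (right, points colored by group, circle for mouse 1 and square for mouse 2). Ctrl points are high in the venous-like cluster and Post-T points in cluster 4, and the Pre-T mice are near 0 throughout.

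From the Pre-T to the Post-T stage 8 genes rose (0.0502%) and 5 fell (0.0314%), 0.0816% in all. Apart from Chrm3, Mcf2l (log2 fold change 5.18 ± 0.53, adjusted p = 0.0283) and Kcnj2 (3.87 ± 0.41, adjusted p = 0.0283) rose, both among the genes that rose against Ctrl. Lpin3, a phosphatidate phosphatase, was 33.1 and 12.6 CPM in Ctrl mice, 8.66 and 8.64 in Pre-T mice and 141 and 163 in Post-T mice (log2 fold change 4.43 ± 0.48, adjusted p = 0.0337). The kinase gene Plk2 was 91.9 and 83.3 CPM in Ctrl mice, 86.6 and 77.7 in Pre-T mice and 337 and 264 in Post-T mice (log2 fold change 2.17 ± 0.26, adjusted p = 0.0466). In both, the 4 Ctrl and Pre-T mice lay below both Post-T mice. Cdk8 (3.56 ± 0.41, adjusted p = 0.0453) rose as well, in the same libraries as Gm42418, and so did Celf4 (3.17 ± 0.32, adjusted p = 0.0285). Sulf1 fell (log2 fold change -5.68 ± 0.55, adjusted p = 0.0192), and 3 of the 5 genes that fell, Hamp and Gm11342 among them, were at a higher level outside the gate. No member of the endothelial lists passed in either this comparison or Pre-T against Ctrl. The adhesion list had a median of -1.39 between Post-T and Pre-T and of 0.68 between Pre-T and Ctrl, and the angiogenic list of 1.66 and 0.41. The count was 1 without any single Ctrl or Pre-T mouse, 106 without Post-T mouse 1 and 22 without Post-T mouse 2.

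Cycling genes were rare: 10 of them summed to 7.35 and 10.1 CPM in Ctrl mice, 32.5 and 57.6 in Pre-T mice and 38.3 and 49.4 in Post-T mice. All 4 Western diet mice lay above both Ctrl mice in this sum, and none of the 9 cycling genes tested passed.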

How the data were processed

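The authors' deposited files were 10x count matrices (3′ Next GEM v3.1 chemistry, 1 library per mouse) of UMI counts per gene and barcode, made with Cell Ranger 6.1.1 on mm10 per the labels. Whether intronic reads were counted is not given in the sources used here. Barcodes with more than 200 and fewer than 5000 genes and under 5% mitochondrial UMIs were kept, 39012 of 41882. No doublet caller was run; the gate limits UMIs of other classes to 1. Counts were summed per mouse and class. The 19 gate genes were left out of tests. Genes with at least 3 counts were tested with edgeR 4.0.16 (R 4.3.3), TMM scaling, quasi-likelihood with its small-count correction and Benjamini-Hochberg adjustment at 0.05. The fit without this correction was added after the data were seen, and the fits with and without it were not compared on simulated data. All 6 mice shared 1 estimate of spread in the diet fits, and mouse was a block in capillary-like against sinusoidal. With 200 simulated changed genes per comparison, 48.5% of those changed by a log2 fold of 2 and 83.8% of those changed by 3 were recovered for Post-T against Ctrl. For Pre-T against Ctrl the shares were 21.1% and 64.5%. False calls numbered 4 for Post-T against Ctrl and 0 for Pre-T against Ctrl. The changed genes were drawn only from genes with a higher expected count than the limit of 3, so these shares do not hold for genes of low level. Standard errors were derived from the log2 fold change and its F value. Clusters were made with scanpy 1.11.5. Shares were compared with exact permutation tests (scipy 1.17.1). Binomial and ratio intervals and the limit of 3 counts cover counting error only. The labels list 1 library per mouse, so p-values measure the spread between 2 mice per group. Named genes had an adjusted p under 0.05 and a mean of at least 30 CPM. They were the largest 12 changes per direction, each moving alike in all 6 mice between classes. Between diets they had no overlap between the 2 sides and a level at least that of nuclei outside the gate. 1 gene that met this rule is not reported here. List members were named beside them, and Igfbp3, Angpt2, Rspo3, Cxcl9 and H2-Aa, which did not pass, were chosen after their values were seen. Genes that pass but stand higher outside the gate were counted, with up to 5 named per direction. The members and gene lists were chosen with earlier results of these data known. Alternatives were DESeq2 1.42.0 (as a test and for size factors), other count filters, a stricter gate, a hepatocyte limit, a replicate block and leaving out each mouse. Positions are from GENCODE on GRCm38.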

Additional observations from a re-analysis of the deposited data

How the results depend on the processing

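Counts of genes called moved with the processing while the named genes kept their direction. DESeq2 in place of edgeR called 768 genes between capillary-like and sinusoidal nuclei (1412 in edgeR), 156 on the Western diet (53), 44 for Pre-T against Ctrl (1), 386 for Post-T against Ctrl (114) and 198 for Post-T against Pre-T (13). Without a filter on low counts 102 genes passed on the Western diet, 285 for Post-T over Ctrl and 75 for Post-T over Pre-T, and with at least 30 counts the last 2 gave 234 and 31. Capillary-like nuclei with at least 2 capillary UMIs and no sinusoidal UMI (453) gave 3 calls on the Western diet, 0 for Pre-T over Ctrl, 47 for Post-T over Ctrl and 0 for Post-T over Pre-T. With at most 1% hepatocyte marker UMIs, 81 genes passed between the 2 kinds of nuclei, 18 for Pre-T against Ctrl and 42 for Post-T against Pre-T, on only 3 capillary-like nuclei in Ctrl mouse 1, 6 in Pre-T mouse 2 and 18 in Post-T mouse 2, and 7 and 8 sinusoidal nuclei in the last 2 mice. edgeR without its small-count correction, chosen after seeing the data, gave 33 for the interaction, 161 on the Western diet, 3 for Pre-T against Ctrl, 402 for Post-T against Ctrl and 179 for Post-T against Pre-T. Leaving out each mouse gave 0 to 1 for the interaction, 0 to 163 on the Western diet, 0 to 2 for Pre-T against Ctrl, 0 to 289 for Post-T against Ctrl and 1 to 106 for Post-T against Pre-T. The cause of these differences was not tested. DESeq2's size factors in edgeR left every count within 1.5 times.

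The replicate numbers did not pair the mice (correlations of deviations -0.118, -0.0114 and -0.0335 over 10379 genes). With the number as a replicate block, 15 genes passed on the Western diet, 30 for Post-T against Ctrl and 1 for Post-T against Pre-T.

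The share of capillary-like nuclei kept its direction in all settings, including leaving each of the 8 rule genes out in turn (chosen after seeing the data). Among gated nuclei the difference lay between 6.12 and 31.4 points for Western diet over Ctrl and between 11.3 and 32.8 for Post-T over Pre-T. For the named genes and called list members no value changed sign, but with a mouse left out 306 values no longer passed and 108 did, and under the other settings 134 did not and 414 did. With 2 mice per group and 106 nuclei in the smallest sum, genes of low level could not be read.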
